A study of Mus musculus with 8 samples.

Results

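The genes described here are 6 of retinoid metabolism and signalling (Rbp4, Rdh10, Aldh1a1, Aldh1a2, Rara and Rarb) and 3 that mark the epicardium, the mesothelial layer that covers the heart (Wt1, Upk3b and Msln). They were taken by symbol from the deposited table of raw counts, which lists 49315 genes, and all 9 were found and passed the filter on low counts. RNA sequencing was done on hearts of male and female C57BL/6 mice, a standard inbred strain, aged 8 weeks, with no treatment named in the labels. The 8 libraries comprise 4 from males and 4 from females. Whether the libraries are from different mice, and whether whole hearts were used, is not in the labels. The p-values therefore measure only the spread between these samples, which may be technical.

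Retinol travels in blood bound to the carrier Rbp4, is oxidized to retinaldehyde by enzymes such as Rdh10, and is then oxidized irreversibly to retinoic acid by the Aldh1a enzymes. Retinoic acid acts through nuclear receptors, the retinoic acid receptors paired with the retinoid X receptors, and is cleared by the Cyp26 enzymes. In the developing heart the epicardium makes retinoic acid through Aldh1a2 and expresses the transcription factor Wt1. In the adult it persists as a thin mesothelium, whose cells carry the surface proteins Msln and Upk3b.

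Several libraries stood apart before any comparison. The 5 atrial markers, among them Nppa, Myl7 and Myl4, summed to 452 CPM (counts scaled to library size) in male 4, against 2290 to 2700 CPM in the other males and 2520 to 2760 CPM in females, and none was at 0. Scgb1a1, a secretory gene of airway cells, was at 19.8 CPM in female 3 and at most 0.837 CPM elsewhere. The 5 lung markers summed to 0.607 to 1.29 CPM in males, and in females to 0.507 to 21 CPM, with 3.92 CPM in female 2, where the alveolar gene Sftpc was at 2.3 CPM. Sftpc had 0 counts in every male library and in female 1, and was at 0.0276 CPM in female 3 and 0.0298 CPM in female 4. The 6 leukocyte markers summed to 527 CPM in male 1, against 300 to 392 CPM in the other males and 259 to 327 CPM in females. Cardiomyocyte markers such as Myh6 summed to 68100 to 76700 CPM in males and 74100 to 75500 CPM in females. Of these 6 markers 0 were called between the sexes by edgeR (adjusted p below 0.05), against 3.79% of all genes tested. In such tissue RNA, fewer cells of a type and less RNA per cell cannot be told apart. Total counts ran from 39612848 to 47097765 in males and from 32746054 to 35467832 in females, without overlap, so that depth and sex moved together (p = 0.0286 by an exact permutation test, two-sided, which can give no smaller p with 4 libraries per sex). The share of mitochondrial counts averaged 12.2% in males and 10.7% in females, also without overlap (exact permutation p = 0.0286).

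Rarb is itself a classic target of retinoic acid. Its promoter is shown because it matches the direct repeat known from work on this gene to carry that response; the match describes the letters, and no binding was measured here. The window covers 250 bases before to 50 bases after the annotated start (RefSeq, GRCm38.p6, chr14:16575427-16575726, minus strand, printed 5′ to 3′), and capitals mark the matched repeat, from its first core to its last.
Rarb promoter: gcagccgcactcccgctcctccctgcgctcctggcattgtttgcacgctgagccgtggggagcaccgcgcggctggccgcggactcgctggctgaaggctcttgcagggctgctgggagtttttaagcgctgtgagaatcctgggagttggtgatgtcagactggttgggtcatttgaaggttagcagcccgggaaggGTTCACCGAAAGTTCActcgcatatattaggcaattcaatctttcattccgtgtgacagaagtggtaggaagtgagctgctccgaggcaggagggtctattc
Direct repeats were searched on both strands with the cores GTTCA and GGTCA in every order, 6 bases apart (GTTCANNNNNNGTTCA, GTTCANNNNNNGGTCA, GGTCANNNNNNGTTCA and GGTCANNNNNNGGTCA) or 3 bases apart (GTTCANNNGTTCA, GTTCANNNGGTCA, GGTCANNNGTTCA and GGTCANNNGGTCA). These are the receptor's repeats with spacers of 5 and 2 bases between hexamers, and no other motif was searched. Windows were at hand for 6 of the 9 genes, 11 windows in all. The wider spacing was matched in Rarb alone among them, from base -52 to base -37 before the start, and the narrower spacing in none. Of all 32851 promoter windows, 0.247% held the wider repeat and 0.399% the narrower one.

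Upk3b, Aldh1a1 and Msln were the most abundant of the 9 genes in both sexes, and Wt1 the least. Levels are compared between genes as RPKM, the CPM divided by the summed exon length in kilobases. Upk3b, a uroplakin-family membrane protein gene, was highest, at 11.3 ± 1.19 RPKM in males and 11.7 ± 1.23 RPKM in females (SD, n = 4 each). Aldh1a1 followed at 10.8 ± 0.462 RPKM in males and 9.35 ± 0.948 RPKM in females, and Msln at 9.2 ± 0.664 RPKM in males and 8.37 ± 0.824 RPKM in females. The ranges of these 3 genes over the 8 libraries overlapped. Below them stood Rarb, at 5.29 to 6.69 RPKM over the 8 libraries, Aldh1a2, at 3.93 to 5.06 RPKM, and Rara, at 2.73 to 3.05 RPKM, with no overlap between these 3 ranges or with Msln at 7.81 to 9.72 RPKM. Rbp4 (1.26 to 2.57 RPKM) and Rdh10 (1.46 to 1.74 RPKM) overlapped each other, and their order turned: in mean, Rbp4 was at 1.45 and Rdh10 at 1.56 RPKM in males, against 2.04 and 1.62 RPKM in females. Rbp4 also overlapped Wt1, which was lowest in mean, at 0.979 to 1.42 RPKM. Upk3b exceeded 79.4% of all genes tested in mean RPKM, and Wt1 exceeded 32.8%.

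**Figure D1:**
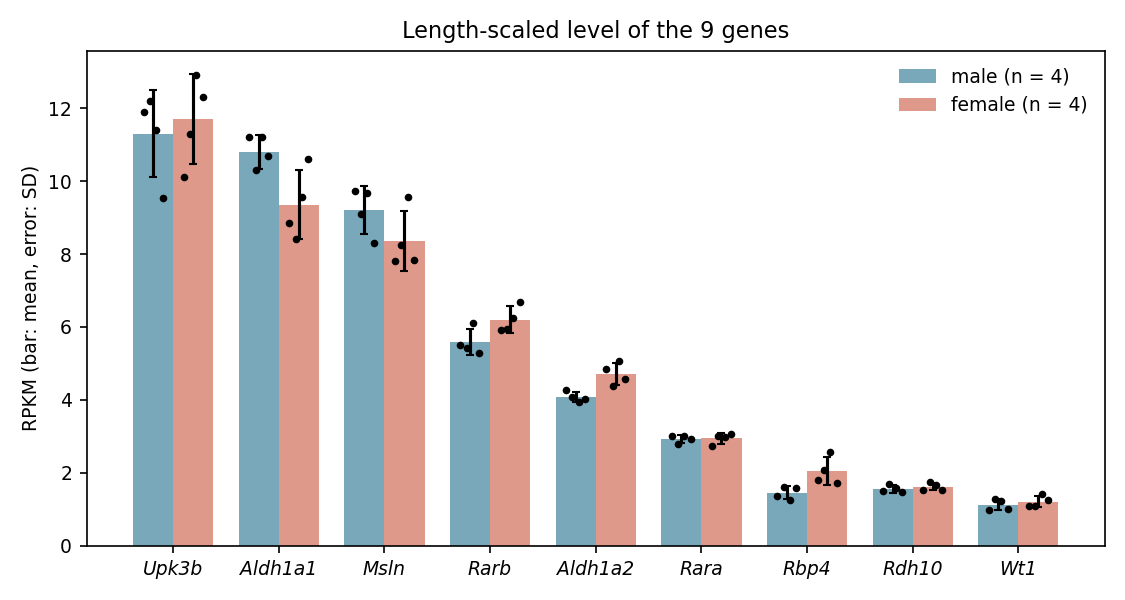
Mean RPKM of the 9 genes in male (left bar) and female (right bar) hearts, ordered by the mean over all libraries; error bars are SD over 4 libraries and black points are single libraries. Upk3b, Aldh1a1 and Msln stand at 7.81 to 12.9 RPKM, and Wt1 lies lowest at 0.979 to 1.42 RPKM.

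None of the 9 genes differed between the sexes at the threshold. Of 16180 genes tested by edgeR's quasi-likelihood test, 3.79% were called at a Benjamini-Hochberg adjusted p below 0.05, and 0 of the 9 were, with adjusted p from 0.1 to 0.97. DESeq2 (5.96% of all genes called) and limma-voom (3.8%) also called 0 of the 9, and so did edgeR with no filter (3%), with the replicate number as a block (2.64%) and without male 4 and female 3 (1.73%). In the fits with a single library left out, which called 1.94% to 3.01% of all genes, 1 of the 9, Aldh1a1, was called once, without female replicate 4 (2.53% of all genes called). At an unadjusted p below 0.05, 4 of the 9 passed (Rbp4, Aldh1a2, Aldh1a1 and Rarb), against 19.5% of all genes tested. In 2 of the 9, Rbp4 and Aldh1a2, no male value lay within the female range, and both genes were higher in females. Of all genes tested, 12% did not overlap, which comprises 5.66% higher in females and 6.39% higher in males. Log2 fold changes below are male minus female on the CPM scale with TMM-scaled library sizes, given with their standard error (SE), and the 95% intervals are not adjusted for the number of genes. The median log2 fold change of the 9 was -0.05, with 7 negative and 2 positive, against a median of -0.001 over all genes. Without male 4 and female 3, a setting chosen after seeing the data, the median of the 9 was 0, with 4 negative and 5 positive.

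**Figure D2:**
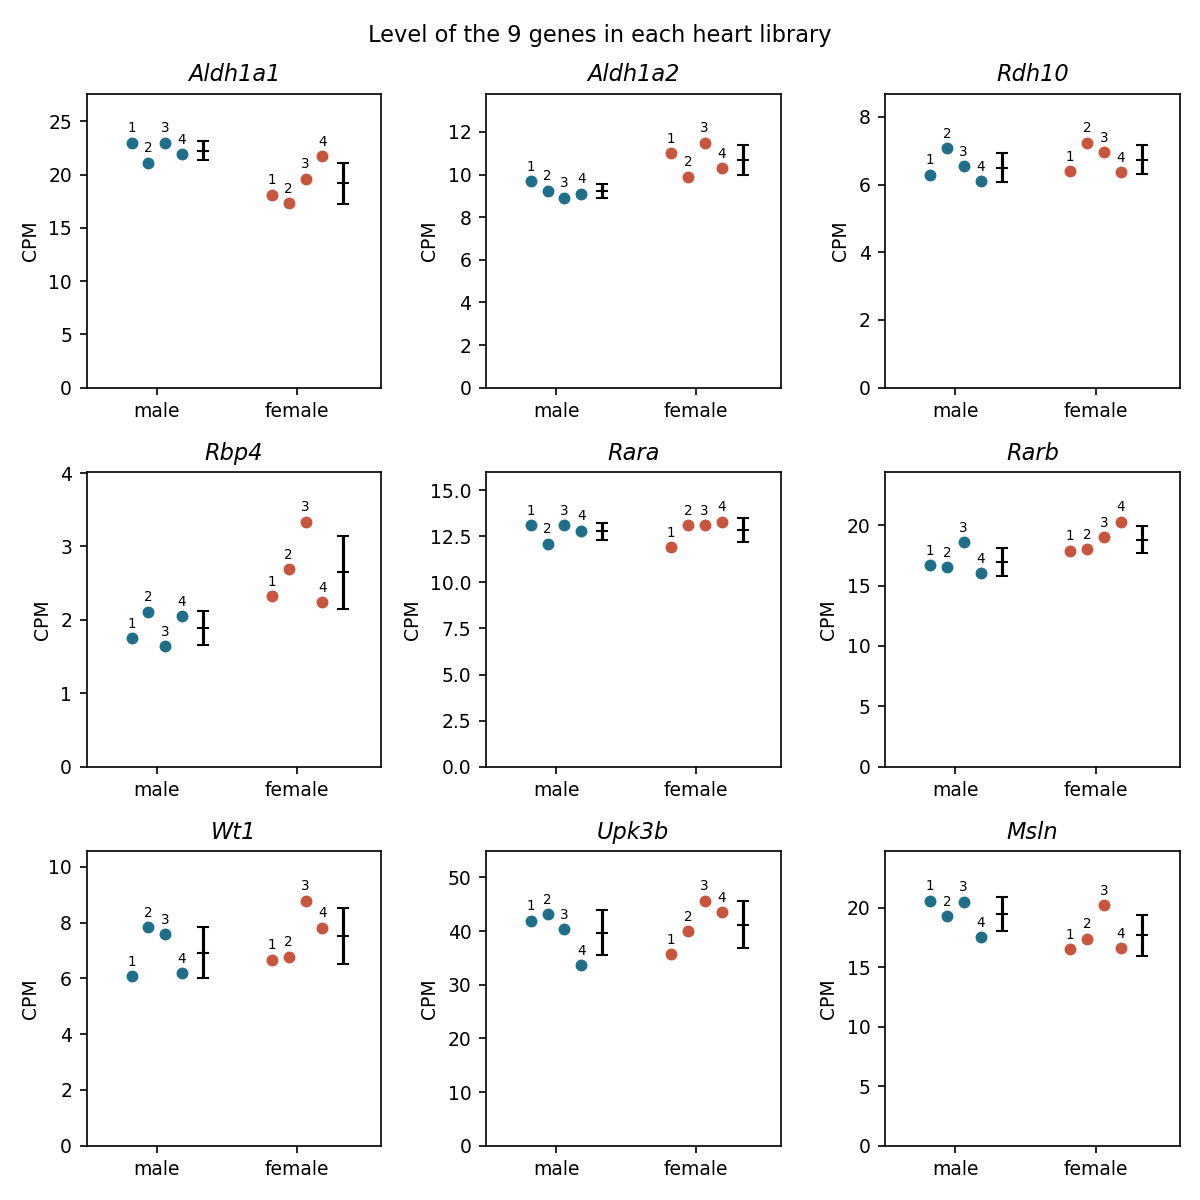
CPM of each of the 9 genes in every library, male libraries left and female libraries right, with the replicate number beside each point and the mean ± SD (n = 4) as a black bar. The sexes do not overlap in Rbp4 and Aldh1a2, and they overlap in the other 7 genes.

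Rbp4, the plasma retinol carrier, which is made mainly by liver and fat, had the largest log2 fold change in size of the 9 (GRCm38 chromosome 19, 38116620 to 38125321, minus strand). It was at 1.75, 2.11, 1.64 and 2.05 CPM in the male libraries, against 2.32, 2.69, 3.34 and 2.24 CPM in the female ones. All 4 female values lay above all male values, and female library 3 was highest. The log2 fold change was -0.49 (SE 0.15, adjusted p = 0.1), a male-to-female ratio of 0.712 with a 95% interval of 0.565 to 0.897. Its counts were the lowest of the 9 (70 to 121 per library), which limits the precision. Adipocyte transcripts moved with it: Plin1, a lipid droplet coat gene, was at 1.41 to 4.6 CPM in males and 10.1 to 21.5 CPM in females, and female library 3 was highest there too. Of 8 white adipocyte markers 0 were higher in males, 7 were higher in females and 1 was not called, with a summed level of 484 to 557 CPM in males and 575 to 686 CPM in females, most of it Fabp4, which other heart cells also express; none was at 0. Of 7 hepatocyte markers 3 were higher in males and 0 in females, summed at 44.8 to 52.7 CPM in males and 28.6 to 33.8 CPM in females, with none at 0. Alb, the albumin gene, was at 27.3 to 34.9 CPM in males and 17.2 to 21.3 CPM in females. Among 4 markers of brown fat, females were higher in 2, with sums of 29.8 to 40.5 CPM in males and 43.9 to 133 CPM in females. Most of the male sum was Cidea, which was not called, at 27.3 to 34.3 CPM in males and 31.2 to 46.2 CPM in females. Ucp1, which was called, was at 0.0234 to 3.6 CPM in males and 9.37 to 81.1 CPM in females. Of all genes tested, 2.03% were called with males higher and 1.76% with females higher. The part of these cell types in the Rbp4 values was not tested. Without female replicate 3 the log2 fold change of Rbp4 was -0.36 (adjusted p = 0.23).

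**Figure D3:**
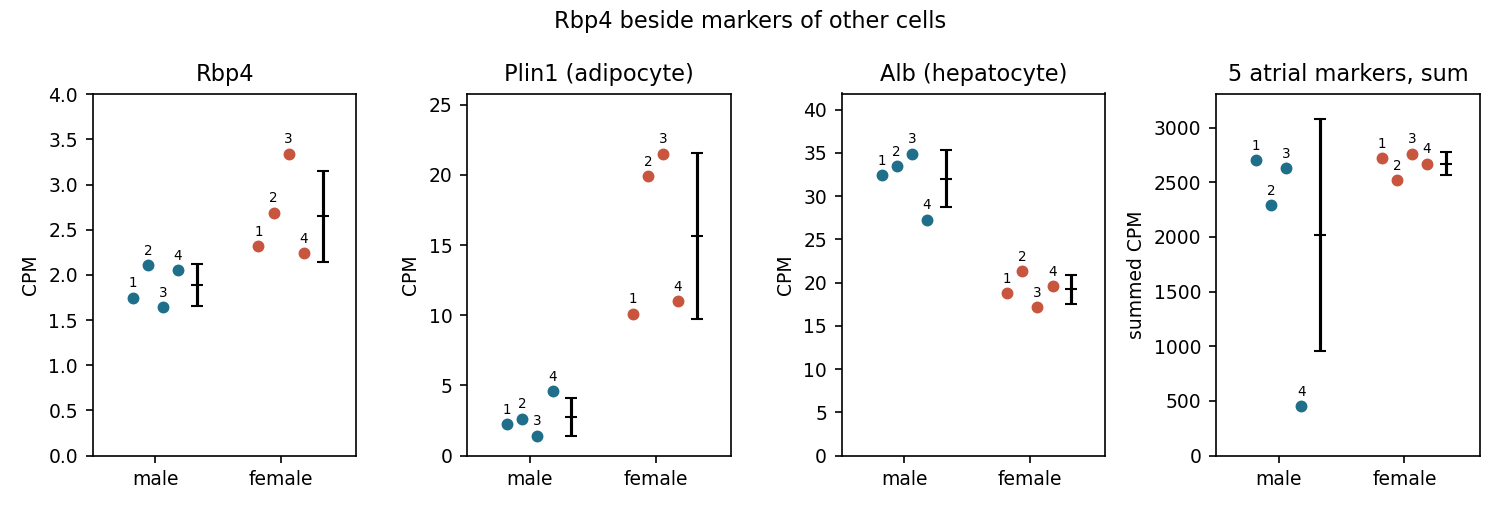
CPM of Rbp4, of the adipocyte gene Plin1 and of the hepatocyte gene Alb, and the summed CPM of 5 atrial markers, in male (left) and female (right) libraries, with replicate numbers and mean ± SD. Rbp4 and Plin1 are both highest in female library 3, Alb is higher in all male libraries, and the atrial sum is 452 CPM in male library 4 against 2290 to 2760 CPM in the others.

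Rdh10, which makes retinaldehyde from retinol (chromosome 1, 16105774 to 16133734, plus strand), did not differ between the sexes beyond its spread. It was at 6.29, 7.08, 6.54 and 6.09 CPM in males, against 6.4, 7.24, 6.95 and 6.36 CPM in females. The groups overlapped throughout. The log2 fold change was -0.05 (SE 0.08, adjusted p = 0.77), and the 95% interval of the ratio ran from 0.853 to 1.09.

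The retinaldehyde dehydrogenases Aldh1a1 and Aldh1a2 had log2 fold changes of opposite sign. Aldh1a1 (chromosome 19, 20601961 to 20643462, plus strand) was at 23, 21.1, 23 and 21.9 CPM in males, against 18.1, 17.3, 19.6 and 21.7 CPM in females. Female library 4 reached into the male range, and the other female libraries lay below it. The log2 fold change was 0.21 (SE 0.07, adjusted p = 0.12), a ratio of 1.16 with a 95% interval of 1.04 to 1.29. Without female replicate 4 the difference passed the threshold (log2 fold change 0.28, adjusted p = 0.043). Aldh1a2, the main retinoic acid source of the embryonic epicardium (chromosome 9, 71215789 to 71296243, plus strand), was at 9.68, 9.23, 8.91 and 9.1 CPM in males, against 11, 9.9, 11.5 and 10.3 CPM in females. Every female value exceeded every male value, the closest being 9.68 CPM in a male and 9.9 CPM in a female library. The log2 fold change was -0.21 (SE 0.07, adjusted p = 0.11), a ratio of 0.866 with a 95% interval of 0.783 to 0.956. Aldh1a1 has a close paralog in the mouse, Aldh1a7, and how reads shared by the copies were counted is not given in the sources used here, so the counts of both are uncertain. Aldh1a7, named after its values were seen and not in the list of retinoid pathway genes described below, was rare. It was at 0.437, 0.406, 0.211 and 0.371 CPM in males, against 0.845, 1.29, 1.41 and 0.776 CPM in females. The groups did not overlap, and males were lower by a log2 fold change of -1.6 (SE 0.27, adjusted p = 0.011). Its counts were 9 to 51 per library, and a filter of 1 CPM in 4 libraries removed it. Aldh1a7 kept an adjusted p of at most 0.031 in every edgeR fit with a single library left out. Without male 4 and female 3 the adjusted p was 0.059.

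Neither of the retinoic acid receptor genes Rara and Rarb was called between the sexes. Rara (chromosome 11, 98927818 to 98974942, plus strand), the most widely expressed receptor of its class, was at 13.1, 12.1, 13.1 and 12.8 CPM in males, against 11.9, 13.1, 13.1 and 13.3 CPM in females. The values interleaved (log2 fold change -0.01, SE 0.06, adjusted p = 0.97; 95% interval of the ratio 0.912 to 1.09). Rarb, whose promoter is printed above (chromosome 14, 16430842 to 16575472, minus strand), was at 16.7, 16.5, 18.6 and 16 CPM in males, against 17.9, 18, 19 and 20.3 CPM in females. Male library 3 lay within the female range and the other male libraries below it. The log2 fold change was -0.15 (SE 0.06, adjusted p = 0.21), a ratio of 0.902 with a 95% interval of 0.821 to 0.99.

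The 3 epicardial genes overlapped between the sexes, and their extremes lay in single libraries. Wt1, a zinc finger transcription factor (chromosome 2, 105126529 to 105173616, plus strand), was at 6.07, 7.84, 7.59 and 6.18 CPM in males, against 6.67, 6.77, 8.79 and 7.82 CPM in females (log2 fold change -0.12, SE 0.12, adjusted p = 0.62). Male 1 was lowest and female 3 highest, and the groups overlapped. The male-to-female ratio of Wt1 had a 95% interval of 0.772 to 1.1, the second widest of the 9. Upk3b (chromosome 5, 136038496 to 136046487, plus strand) was at 41.9, 43.1, 40.3 and 33.6 CPM in males, against 35.7, 40, 45.7 and 43.5 CPM in females (log2 fold change -0.05, SE 0.09, adjusted p = 0.78). Male library 4 was the lowest of all 8 for Upk3b, and without it the log2 fold change was 0.02. Without male 4 and female 3 it was 0.07 for Upk3b and 0.02 for Wt1. Msln, the surface glycoprotein mesothelin (chromosome 17, 25748614 to 25754327, minus strand), was at 20.6, 19.3, 20.5 and 17.5 CPM in males, against 16.5, 17.4, 20.2 and 16.6 CPM in females. Male library 4 was the lowest male and female library 3 the highest female, and the groups overlapped. Its log2 fold change was 0.14 (SE 0.08, adjusted p = 0.36), with a 95% interval of the ratio of 0.98 to 1.23. Without male 4 and female 3 it was 0.25 for Msln (adjusted p = 0.066).

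**Figure D4:**
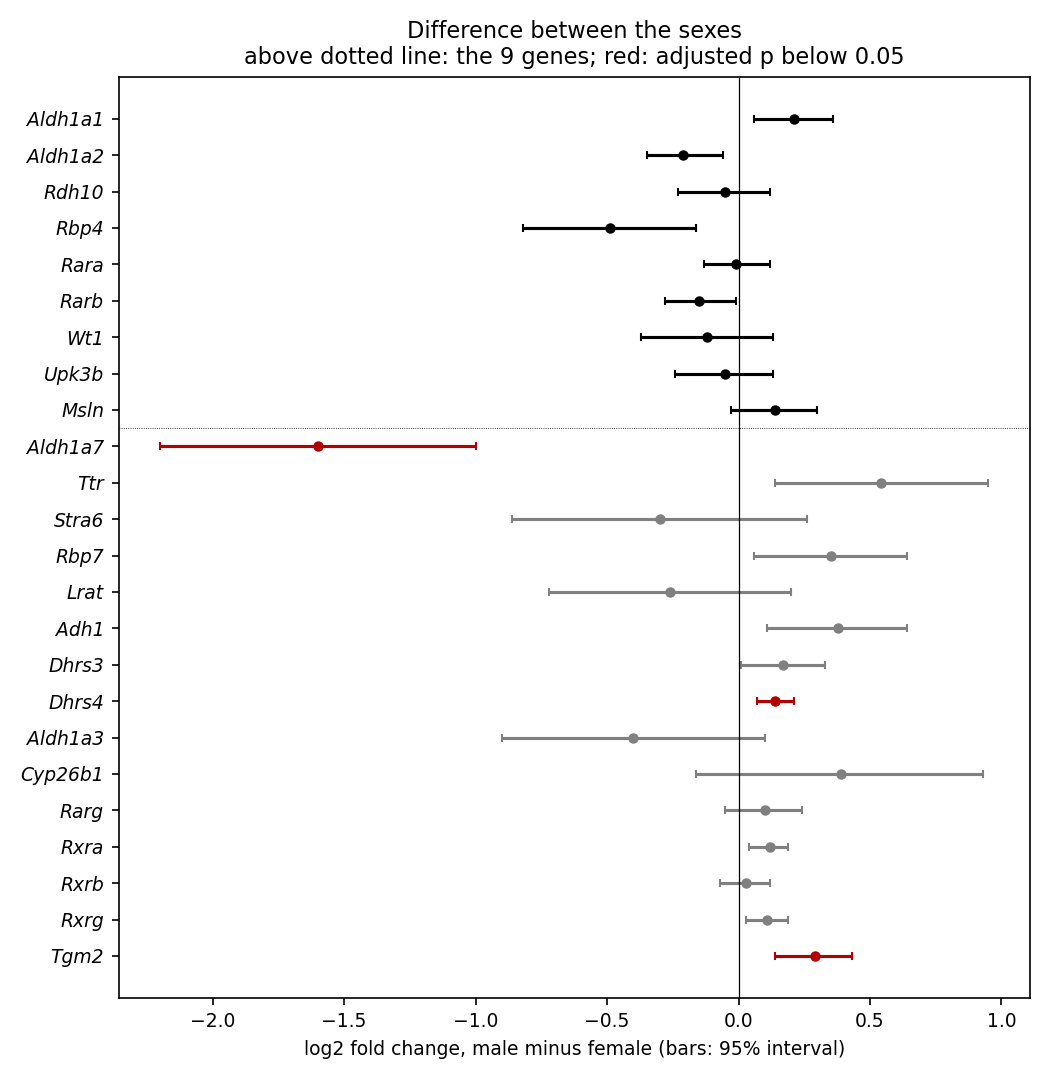
Log2 fold change, male minus female, with its 95% interval for the 9 genes (above the dotted line). Below it are the paralog Aldh1a7, which is not in the list of retinoid pathway genes, and 14 genes of that list. Red marks an adjusted p below 0.05. The 9 genes lie between -0.49 and 0.21, and Aldh1a7, Dhrs4 and Tgm2 are the genes in red.

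Beyond the 6 retinoid genes, 51 other genes of the pathway were listed, and 37 passed the filter on low counts. Of these 37, edgeR called males higher in 2 and females in 0, and 35 were not called. Of all genes tested, 2.03% were called with males higher and 1.76% with females higher. The median log2 fold change of the 37 was 0.03, with 23 positive and 14 negative, where 49.7% of all genes tested were positive. At an unadjusted p below 0.05, 12 of the 37 passed, against 19.5% of all genes tested. In 5 of the 37 the sexes did not overlap, against 12% of all genes tested. The 14 not tested had 0 to 63 counts over the 8 libraries. Among them were Crabp1 and Crabp2, the cellular retinoic acid binding proteins, with 15 and 14 counts, and Cyp26a1, a retinoic acid hydroxylase known for its response to retinoic acid, with 49.

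Dhrs4, a peroxisomal reductase that can act on retinaldehyde, was higher in males. It was at 106, 106, 106 and 110 CPM in males, against 97.7, 94.2, 97.5 and 99 CPM in females. The groups did not overlap, and the log2 fold change was 0.14 (SE 0.03, adjusted p = 0.036). Leaving out any 1 of the 8 libraries ended the call, with adjusted p of up to 0.11 (without female replicate 2), as did a fit with the replicate number as a block (0.086). Tgm2, the tissue transglutaminase, a gene induced by retinoic acid in several cell types, was the other call. It was at 308, 289, 344 and 312 CPM in males, against 264, 226, 276 and 262 CPM in females (log2 fold change 0.29, SE 0.07, adjusted p = 0.035). Its groups did not overlap either. The call held without male replicate 2 (0.033) and without female replicate 3 (0.042) and was lost without any other single library, with adjusted p of up to 0.095 without male replicate 3.

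By edgeR's reported fit, Dhrs4 was the 1 call among 9 genes tested of retinol and retinal interconversion. Tgm2 was the 1 call among 6 target genes, and no gene of the other roles was called. Over all genes tested, 3.79% were called, which includes 2.03% with males higher. Another interconversion gene, the alcohol dehydrogenase gene Adh1, was called by DESeq2 (log2 fold change 0.38, adjusted p = 0.028) and by edgeR with no filter (adjusted p = 0.023), and Dhrs3, of the same role, without male replicate 2 (0.25, adjusted p = 0.032). Of 9 uptake, binding and storage genes tested, log2 fold changes ran from -0.3 to 0.54. Lpl, the lipoprotein lipase of the vessel wall, which can also act on retinyl esters, was at 4130 ± 282 CPM in males and 4030 ± 91.1 CPM in females, with an adjusted p of 0.72. Lrp1, an endocytic receptor for lipoprotein remnants, was at 220 ± 11.2 CPM in males and 240 ± 17 CPM in females (adjusted p = 0.23). Stra6, the Rbp4 receptor, was rare, at 0.433 ± 0.102 CPM in males and 0.537 ± 0.136 CPM in females (adjusted p = 0.56). Ttr, the transthyretin that travels with Rbp4 in plasma, was at 3.86 ± 1.01 CPM in males and 2.64 ± 0.479 CPM in females (log2 fold change 0.54, adjusted p = 0.14), a difference opposite in sign to that of Rbp4; Ttr is also among the hepatocyte markers above. Aldh1a3, a further retinaldehyde dehydrogenase, was at 1.52 ± 0.395 CPM in males and 1.99 ± 0.612 CPM in females (adjusted p = 0.37), and Aldh8a1, which had 48 counts in all, was not tested. Cyp26b1, the more abundant retinoic acid hydroxylase here, varied widely. It was at 7.98, 4.31, 5.84 and 6.44 CPM in males, against 4.98, 7.16, 2.89 and 3.73 CPM in females (log2 fold change 0.39, SE 0.25, adjusted p = 0.43). The groups overlapped, and single libraries moved the log2 fold change widely: it was 0.24 without male replicate 1, 0.67 without female replicate 2, 0.21 without female replicate 3, and 0.19 without male 4 and female 3.

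The 5 other receptor genes were Rarg, the retinoid X receptor genes Rxra, Rxrb and Rxrg, and Ppard, which is of neither retinoid class. All had small positive log2 fold changes, from 0.03 to 0.12, and none was called. Of all genes tested, 49.7% had a positive log2 fold change. Rxra, the retinoid X receptor most expressed of the 3 in CPM, was at 97.5 ± 3.33 CPM in males and 89.9 ± 1.52 CPM in females (log2 fold change 0.12, adjusted p = 0.095), and Rxrg at 82.8 ± 3.15 CPM in males and 76.6 ± 1.24 CPM in females (0.11, adjusted p = 0.12). Both showed no overlap between the sexes, as did 12% of all genes tested. Of 6 coregulator genes 0 were called by edgeR and 2 had an unadjusted p below 0.05, against 19.5% of all genes tested. DESeq2 called 1 of them, Nrip1, at 17.2 ± 0.819 CPM in males and 20.3 ± 2.26 CPM in females (edgeR log2 fold change -0.24, adjusted p = 0.099; DESeq2 -0.25, adjusted p = 0.046). The corepressor gene Ncor1 was at 156 ± 8.96 CPM in males and 152 ± 2.63 CPM in females (adjusted p = 0.7).

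All 23 further epicardial and mesothelial genes passed the filter, and 0 were called by edgeR, with 5 at an unadjusted p below 0.05, a threshold that 19.5% of all genes tested passed. Their median log2 fold change was -0.16, with 2 positive and 21 negative values, where 50.3% of all genes tested were negative. The gene with the smallest p was Tcf21, a transcription factor of epicardium-derived fibroblasts, at 9.87 ± 0.892 CPM in males and 12.1 ± 0.822 CPM in females (log2 fold change -0.3, SE 0.08, adjusted p = 0.061); DESeq2 called it (adjusted p = 0.022), and so did edgeR with no filter (adjusted p = 0.04). Limma-voom called 0 of the 23. The keratin genes of simple epithelia had log2 fold changes of -0.12 to -0.39. Krt19 was at 5.7 ± 0.755 CPM in males and 6.47 ± 1.21 CPM in females, and Krt7 at 3.55 ± 0.315 CPM in males and 3.86 ± 0.679 CPM in females (adjusted p = 0.51 and 0.66). Efemp1, a matrix glycoprotein gene, was at 15.2 ± 1.59 CPM in males and 13.8 ± 1.16 CPM in females, and Podxl, which endothelium also expresses, at 146 ± 6.17 CPM in males and 146 ± 15.3 CPM in females (adjusted p = 0.43 and 0.99). The GATA factor genes Gata4 and Gata6, which heart muscle also expresses, were at 117 ± 2.83 and 78.5 ± 4.44 CPM in males, against 126 ± 7.29 and 79.4 ± 6.63 CPM in females (adjusted p = 0.24 and 0.92).

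A pair of libraries carried many of the extremes of the mesothelial genes. Of the 23 genes, 11 were lowest of all 8 libraries in male library 4, against 14.4% of all genes tested, and 11 were highest in female library 3, against 13.6% of all genes. All 4 keratins were lowest in male 4 and highest in female 3, with a summed level of 14.6, 15.1, 15 and 11.6 CPM in males, against 12.9, 15.2, 20 and 16.6 CPM in females. Upk1b, a tetraspanin that pairs with uroplakins, was at 3.45 CPM in male 4 and 6.34 CPM in female 3, with 3.83 to 4.95 CPM in the other 6 libraries. Without both libraries 14 of the 23 genes had a negative log2 fold change and the median was -0.05; without male 4 alone these were 19 and -0.1, and without female 3 alone 19 and -0.08. Of 9 fibroblast markers males were higher in 0 and females in 2, against 2.03% and 1.76% of all genes tested. Of these 9 markers 8 were lowest in male 4 and 6 were highest in female 3. They summed to 2890 to 3290 CPM in males and 3420 to 3640 CPM in females. Most of that sum was Gsn, at 1940 ± 127 CPM in males and 2070 ± 83.8 CPM in females (edgeR adjusted p = 0.31). All 9 markers had a negative log2 fold change, with a median of -0.16. Without both libraries all 9 stayed negative (median -0.11), and without male 4 alone 8 did (median -0.12). Fat markers shared the female extreme: 5 of 8 white and 4 of 4 brown adipocyte markers were highest in female 3. In male 4, 0 of either list were lowest. The part of atrial, lung, fibroblast or fat content in the mesothelial values was not tested.

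**Figure D5:**
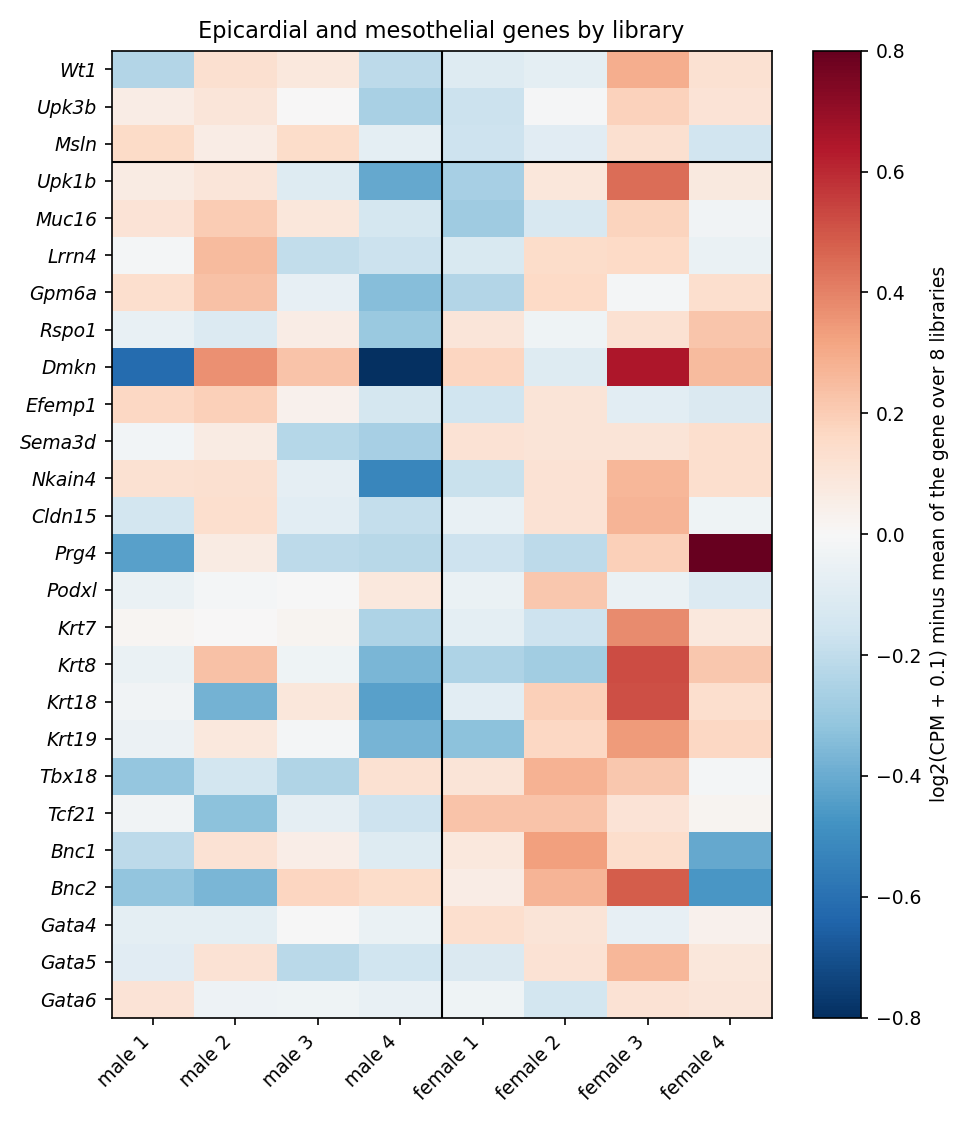
Wt1, Upk3b and Msln (above the line) and 23 further epicardial and mesothelial genes in male (left) and female (right) libraries, coloured by log2(CPM + 0.1) minus the mean of the gene over the 8 libraries, with values past the ends of the scale drawn in its end colours. Male 4 is mostly blue (11 of the 23 genes lowest there) and female 3 mostly red (11 of the 23 highest there).

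No exon of the 9 genes overlaps an exon of another gene in the deposited annotation. For the pattern over libraries, the 3 genes with the highest Pearson correlation to each of the 9 were taken, in log2 CPM after subtracting the mean of the sex, and none of the 9 was among the 3 closest to another. Over 12344 candidate genes and 8 libraries, which share the differences in depth and content given above, these correlations were 0.937 to 0.996. The closest gene to Wt1 was Sec14l2 (r = 0.977), to Upk3b Rtn4rl1 (r = 0.98), to Msln Lrp1 (r = 0.97), to Rbp4 Chd3 (r = 0.978) and to Rarb P4hb (r = 0.996). They were picked as the highest among all candidates, which by itself favours high values. Among the 9 genes, r was 0.73 for Upk3b and Msln, 0.71 for Upk3b and Wt1, and 0.53 for Wt1 and Msln. Over all pairs of the 9 it ran from -0.53 (Aldh1a1 and Rdh10) to 0.77 (Aldh1a1 and Rarb). These values are a description of the 8 libraries.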

How the data were processed

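Raw counts per gene of 8 libraries, as the authors deposited them, were analysed, 4 from male and 4 from female hearts; the deposited normalized table was not used. The submitters' processing notes name Trimmomatic 0.36, STAR 2.5.2b, featureCounts of Subread 1.5.2 and GRCm38 (mm10), without their order. Annotation release, strandedness and handling of multi-mapping reads are not given in the sources used here. The single-sample tables held 100% the same counts, with exon coordinates and summed exon length, the other values used. Of 49315 IDs, 48970 matched a symbol.

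In R 4.3.3, edgeR 4.0.16 kept genes by filterByExpr (count of at least 10, total of at least 15), applied TMM scaling and ran its quasi-likelihood test of males over females, adjusted by Benjamini-Hochberg over 16180 genes with a threshold of 0.05. Each SE came from the fold change and its F statistic, as the size of the log2 value over the root of F. DESeq2 1.42.0 and limma 3.58.1 (voom) were alternatives, beside other scalings and filters, a replicate block and each library left out. One count was worth 0.0212 to 0.0305 CPM, and log2 CPM for correlations had a prior count of 2. The procedure was tested on simulated data.

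The 9 genes and all lists were chosen with earlier results of these data known. The naming rule covers the 9 genes and every called gene of the retinoid and epicardial lists. For a role without a call, it covers the 2 genes with the highest mean CPM. It also covers the 3 highest markers of each other cell type and the closest genes in pattern, not all of which are named. The closest genes were sought among genes of at least 1 CPM. Named outside this rule, after their values were seen, were Aldh1a7, Tcf21, Stra6, Crabp1, Crabp2, Upk1b, Adh1, Rbp7, Dhrs3 and Nrip1. Ttr was discussed among retinoid genes after its values were seen, and is within the rule as a hepatocyte marker. Lrat is in the drawing of fold changes only, Rarg and Rxrb there and by name, and Ppard by name only. Values of 2 listed genes, which the counts include, are not reported here.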

Additional observations from a re-analysis of the deposited data

Results flagged for a closer look

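Each value was set against the other 3 libraries of its sex, and 10 of 118 sets held a library far from the rest, where chance gives about 1 in 20. None of the 9 retinoid and epicardial genes was among them. Among mesothelial genes, Krt7 was at 3.08 CPM in male 4, against 3.68 to 3.73 CPM in the other males. Podxl was at 169 CPM in female 2, against 135 to 140 CPM in the other females, and Gata6 at 85.1 CPM in male 1, against 75.5 to 76.8 CPM in the other males.

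Among retinoid pathway genes, Dhrs4 was at 110 CPM in male 4, against 106 CPM in each of the other males. Lrp1 was at 266 CPM in female 3, against 229 to 233 CPM in the other females. Lpl was at 3890 CPM in female 1, against 4070 to 4090 CPM in the other females.

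Among markers of other cells, Nppa was at 186 CPM in male 4, against 1130 to 1310 CPM in the other males, and Myl4 at 591 CPM in female 2, against 642 to 645 CPM in the other females. Scgb1a1 was at 19.8 CPM in female 3, against 0 to 0.393 CPM in the other females. Sftpc was at 2.3 CPM in female 2, against 0 to 0.0298 CPM in the other females.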

How the results depend on the processing

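The number of the 9 genes called was 0 in 15 of 16 alternatives and 0 to 1 over the fits with a library left out, the 1 being Aldh1a1 (log2 fold change 0.16 to 0.28 over these fits). The count over all genes, 613, was 964 by the DESeq2 Wald test, 315 to 490 with a library left out (315 without male 3, 354 without female 2, 379 without female 3) and, under the setting chosen after seeing the data, 280 without male 4 and female 3. The other retinoid genes called, 2 in the reported fit, were 4 by DESeq2 (with Adh1 and Nrip1), 3 with no filter (with Adh1), 0 to 2 over the leave-out fits and 0 without both male 4 and female 3. The other epicardial genes called, 0, were 1 by DESeq2 and 1 with no filter, Tcf21 each time. The cause was not tested.

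Signs turned, with no call, for Rara (-0.04 to 0.02 with a library left out, 0 without male 4 and female 3), Upk3b (-0.12 to 0.02, and 0.07), Wt1 (0.02 without both), Krt7 (0.06 without both), Gata6 (-0.07 to 0.02, and 0.04), Lpl (-0.01 to 0.06, and -0.01), Ncor1 (0 to 0.07) and Podxl (-0.04 to 0.07, and 0 with no filter, limma-voom and the replicate block). Dhrs4 and Tgm2 kept their sign under every alternative, with adjusted p of 0.0066 to 0.12 and 0.00068 to 0.095, and Aldh1a7 lost its call without male 4 and female 3 (adjusted p = 0.059).

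Libraries with the same number did not deviate together (correlations of -0.05 to 0.05), and no male library correlated best with its own number. With the replicate block, 427 genes and 1 of the other retinoid genes, Tgm2, were called. Among the 9 genes depth limits Rbp4 most, with 70 to 121 counts per library.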

Other observations

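The balance of the 2 retinaldehyde dehydrogenases, a value chosen after the data were seen, did not overlap between the sexes. The ratio of Aldh1a1 to Aldh1a2 in RPKM was 2.62, 2.51, 2.85 and 2.65 in males, against 1.83, 1.92, 1.89 and 2.32 in females. Females 1 to 3 lay close together and female 4 stood nearest to the males. Neither gene was called by itself in the reported fit, and the Aldh1a1 counts are uncertain beside Aldh1a7. Aldh1a2 alone did not overlap, and the ratio was taken with the opposite signs of the 2 genes known, which favours separation. The 12% of single genes without overlap is therefore no measure for such a ratio.

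Alcohol dehydrogenase Adh1, which can oxidize retinol, was at 16.3 ± 2.21 CPM in males and 12.5 ± 2.02 CPM in females (SD, n = 4 each; log2 fold change 0.38, edgeR adjusted p = 0.11, and 0.023 with no filter; DESeq2 adjusted p = 0.028). Rbp7, a retinol-binding protein gene of endothelium and fat, was at 13.6 ± 1.16 CPM in males and 10.6 ± 2.3 CPM in females (0.35, adjusted p = 0.17). Dhrs3, which returns retinaldehyde to retinol and is raised by retinoic acid, was at 78.9 ± 9.85 CPM in males and 70.1 ± 2.08 CPM in females (0.17, adjusted p = 0.23); without male replicate 2 it passed the threshold (0.25, adjusted p = 0.032). These 3 genes were named after their values were seen.

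Among markers of further cell types, males were higher in 1 of 5 endothelial genes and females in 0, and of 5 smooth muscle and pericyte genes males were higher in 1 and females in 1. Of all genes tested, 2.03% were called with males higher and 1.76% with females higher. None of 6 leukocyte, 4 erythroid or 5 atrial genes, nor of the 2 lung genes tested, was called by edgeR. At an unadjusted p below 0.05 there were 2, 0, 0 and 1 of them, against 19.5% of all genes tested. The erythroid sum spread widely in both sexes, from 2250 to 6820 CPM in males and from 492 to 7930 CPM in females.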
